A study of Mus musculus with 8 samples.

Results

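The granzymes are serine proteases that cytotoxic T cells and NK cells store in secretory granules, and perforin, encoded by *Prf1*, is the protein that forms pores in the membrane of a bound target cell. When a granule is released at the contact with the target, perforin lets the granzymes reach its cytosol, where granzyme B (*Gzmb*) cleaves caspases and other substrates and the cell dies. In the mouse, granzyme A (*Gzma*) and granzyme K (*Gzmk*) are tryptases, granzyme M (*Gzmm*) cuts after methionine or leucine, and *Gzmc*, *Gzmd*, *Gzme*, *Gzmf* and *Gzmg* are rodent genes that lie beside *Gzmb* and arose by duplication. The 10 genes described here are *Gzma*, *Gzmb*, *Gzmc*, *Gzmd*, *Gzme*, *Gzmf*, *Gzmg*, *Gzmk*, *Gzmm* and *Prf1*. The choice was made by symbol among the 18193 genes with a probe set naming that gene alone, and all 10 were measured. They are read by 13 probe sets, of which 1 names both *Gzmd* and *Gzme*. Each gene is represented by the probe set of the highest mean over the 8 arrays among those naming that gene alone, and the other probe sets are given beside it.

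The arrays hold RNA of antigen-experienced CD8+ T cells, sorted as CD3+CD8+CD44+CD62L- from female C57BL/6 mice aged 6 to 8 weeks that all carried subcutaneous MC38 tumors, a mouse colon adenocarcinoma line. There were 4 groups of 2 arrays, from LN or tumors, each with or without IR, where IR is 5 Gy of WBI given 5 h before the organs were taken. In each of 2 independent experiments, cells of 4 mice per treatment were pooled into 1 array per group, the LN cells coming from nodes that drain the tumor together with nodes that do not. Tumors were digested with enzymes, spun in Percoll and enriched for CD8+ cells by positive selection before sorting. LN were mechanically disrupted, so tissue and preparation cannot be told apart. No group came from tumor-free mice. Values are log2 intensities, 1 unit being a doubling. The 2 arrays of a group correlated at 0.982 in LN without IR, 0.966 in LN with IR, 0.993 in tumor without IR and 0.992 in tumor with IR. The LN IR pair was the least alike, with an SD of 0.57 for the difference between its arrays against 0.27 in either tumor pair. Transcripts of T cell identity, such as the CD3 chains, had mean levels of 11.25 to 11.88 on every array, and 0 of 11 were called different between tumor and LN by limma, with 4 at an unadjusted p under 0.05 in each comparison. All 4 measured p53 target genes checked (*Cdkn1a*, *Phlda3*, *Mdm2* and *Ccng1*) were called higher with IR in LN. In tumor T cells all 4 rose, and 2 of them (*Phlda3* and *Ccng1*) were called. *Cdkn1a* and *Mdm2* rose there by 1.95 and 0.91 and were not called (limma adjusted p = 0.138 and 0.216). A gene is called higher or lower where limma's adjusted p was under 0.1 and the means differed by 1 log2 unit or more. Over all probe sets, the lower quartile of an array lay at 5.38 to 5.59. Levels below that may be background signal, and differences from them then have no exact size.

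Of the 10 genes, 6 lie together on chromosome 14 in the RefSeq annotation (assembly GRCm38.p6), in the order *Gzme*, *Gzmd*, *Gzmg*, *Gzmf*, *Gzmc* and *Gzmb*, with a further granzyme gene, *Gzmn*, between *Gzmg* and *Gzmf*. *Gzma* and *Gzmk* lie on chromosome 13, and *Gzmm* and *Prf1* on chromosome 10. The promoters of the chromosome 14 genes are shown because the tumor to LN differences reported below were largest there. Each line is 120 bases, 5′ to 3′ on the gene's strand, which is the minus strand of the assembly for all 6. The last base lies at −26 (*Gzmc*) to −51 (*Gzmf*) from the annotated start. Lines were cut to end with a shared run of bases, and that of *Gzmb*, which lacks the run, at a set position of −41. Capitals mark the word TGTGGT, which RUNX factors bind, the word TGACGTCA, a cAMP response element (CRE), and a run of 20 bases present in 5 of the 6 genes.
Gzme: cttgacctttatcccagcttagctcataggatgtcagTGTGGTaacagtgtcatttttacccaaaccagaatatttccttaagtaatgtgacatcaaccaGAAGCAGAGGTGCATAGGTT
Gzmd: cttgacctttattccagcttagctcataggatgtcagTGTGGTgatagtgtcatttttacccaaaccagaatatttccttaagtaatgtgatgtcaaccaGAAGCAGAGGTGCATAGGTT
Gzmg: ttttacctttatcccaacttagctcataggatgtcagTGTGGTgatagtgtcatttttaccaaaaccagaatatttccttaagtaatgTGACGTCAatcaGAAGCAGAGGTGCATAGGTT
Gzmf: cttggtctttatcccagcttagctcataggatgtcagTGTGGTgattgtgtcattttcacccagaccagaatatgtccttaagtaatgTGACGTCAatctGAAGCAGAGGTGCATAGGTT
Gzmc: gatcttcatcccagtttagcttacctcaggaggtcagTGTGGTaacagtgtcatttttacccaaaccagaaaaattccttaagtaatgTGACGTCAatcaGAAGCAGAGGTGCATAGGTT
Gzmb: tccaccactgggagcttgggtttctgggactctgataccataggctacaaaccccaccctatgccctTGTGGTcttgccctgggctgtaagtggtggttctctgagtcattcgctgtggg
The stretches lie at chr14:56120656-56120775 for *Gzme*, chr14:56132623-56132742 for *Gzmd*, chr14:56159625-56159744 for *Gzmg*, chr14:56211458-56211577 for *Gzmf*, chr14:56234683-56234802 for *Gzmc* and chr14:56262375-56262494 for *Gzmb*. Those of *Gzmd*, *Gzme*, *Gzmf*, *Gzmg* and *Gzmc* end in the same 20 bases, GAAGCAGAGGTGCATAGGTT, and carry TGTGGT at the same distance from that run. The *Gzmc* stretch lies inside the RefSeq span of the gene, which reaches further upstream than the start used in the promoter table.

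Over the whole 300 base promoter windows (250 bases before to 50 after the start), *Gzmc*, *Gzmd*, *Gzme*, *Gzmf* and *Gzmg* were 74.6% to 93.4% identical in their 10 pairs. *Gzmb* was 46.8% to 51.9% identical to these 5, and *Gzmn* 49.6% to 53.1% identical to the other 6. A search of both strands found TGTGGT in windows of 9 of the 10 genes, all but *Gzmk*, where 16.8% of the 32851 promoters of the table hold it. The full CRE word TGACGTCA was in *Gzmc*, *Gzmf* and *Gzmg*, against 1.79% of promoters. The T-box word GGTGTGA was in *Gzmk* and *Gzmm* (3.98% of promoters), the AP-1 word TGANTCA in *Gzmb* (7.81%), the STAT word TTCNNNGAA in *Gzmb* and *Gzmm* (8.30%) and the NFAT word GGAAAA in *Gzma* and *Gzmm* (23.4%). The windows of *Gzmc*, *Gzmd*, *Gzme*, *Gzmf* and *Gzmg* belong to duplicated genes, so their TGTGGT and CRE matches are not independent. The counts of genes cannot be read against the shares as separate finds. These matches describe letters in the window and were not tested for binding.

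Without IR, 5 of the 10 genes were higher in tumor T cells, *Gzmb*, *Gzmc*, *Gzmd*, *Gzme* and *Gzmf*, all of them on chromosome 14. None was called lower. The unadjusted p was under 0.05 for 8 genes: these 5, *Gzmg* and *Prf1* with positive differences, and *Gzmm* with a negative one. Over all 18193 genes, 4.50% were called higher and 1.04% lower. The chromosome 14 granzymes are related by duplication, and probe sets of near-identical members may share signal. The 5 called genes are therefore not independent of each other. The median log2 difference of the 10 genes was 1.85, and that of all genes −0.09. In bulk RNA of sorted cells, fewer cells of a type and less RNA per cell cannot be told apart, so a difference may lie in how many cells carry a transcript or in how much each carries.

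**Figure D1:**
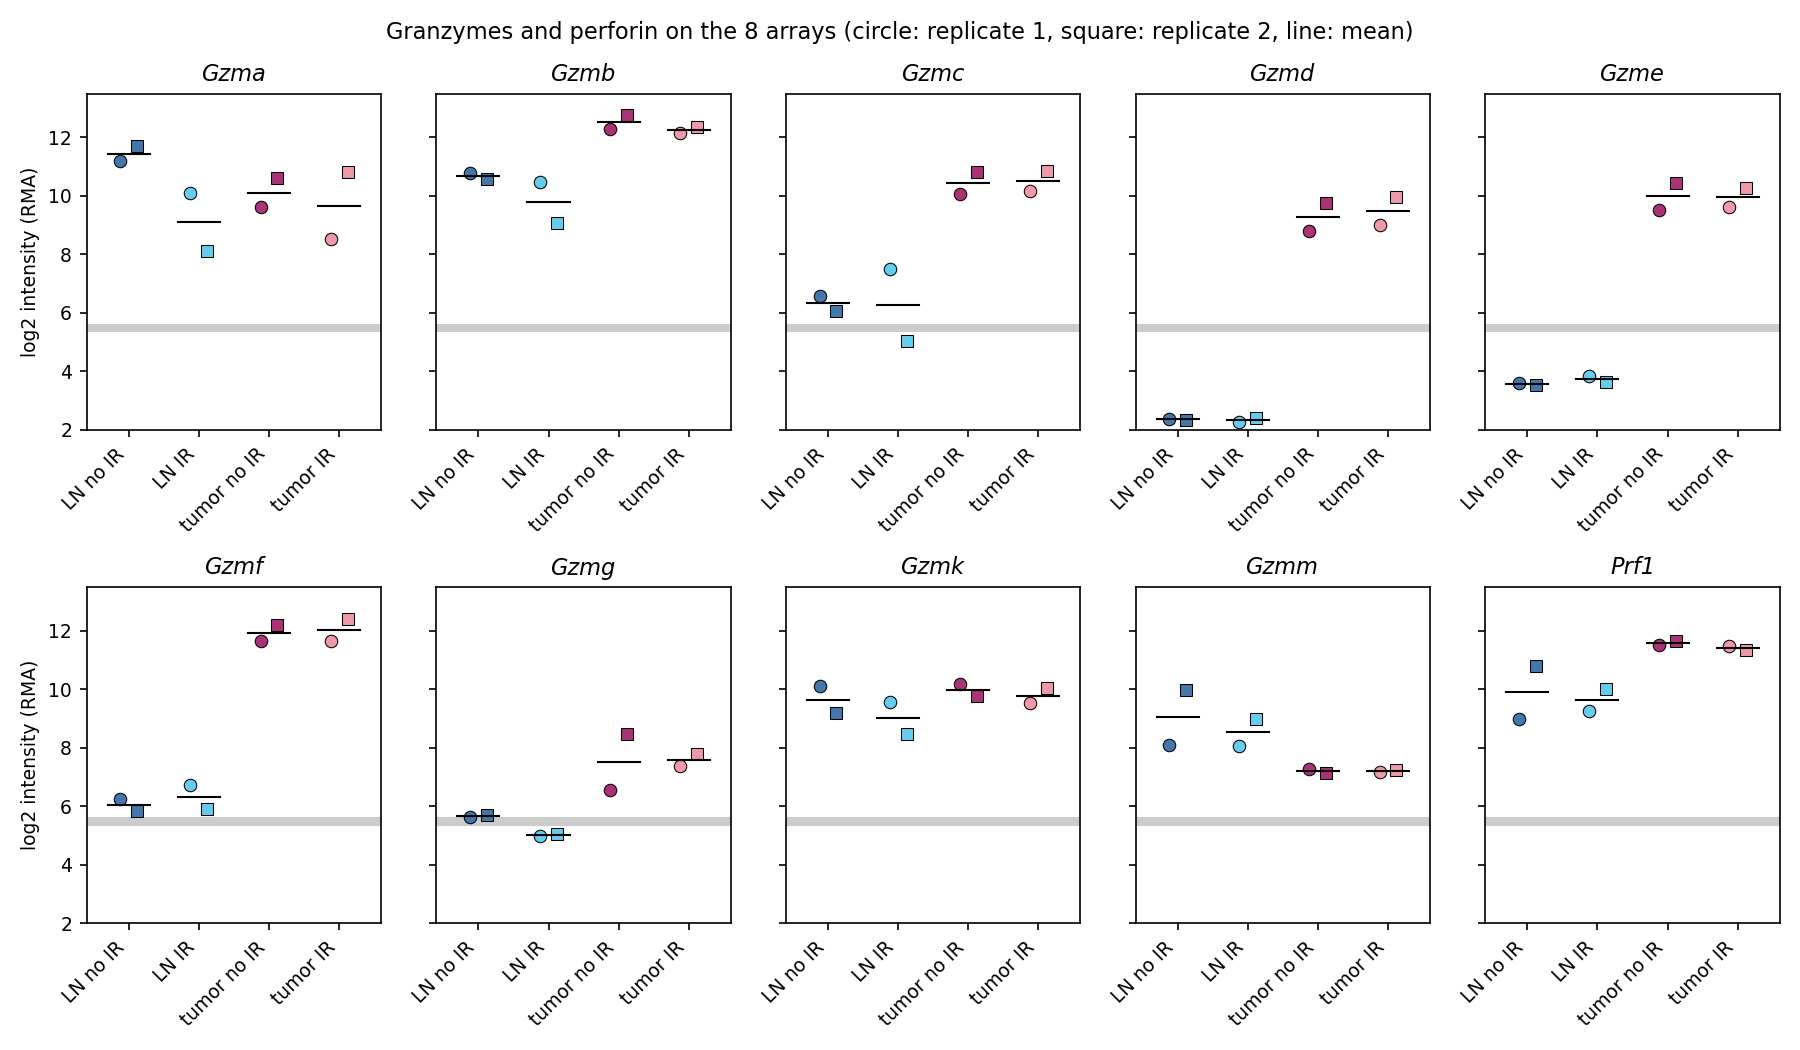
Log2 intensity (RMA) of the main probe set of each gene on the 8 arrays, by group; circles are replicate 1, squares replicate 2, black lines the mean of the 2 arrays and the grey band the lower quartiles of the arrays (5.38 to 5.59). *Gzmd* and *Gzme* lie under the band on all 4 LN arrays and at 8.79 or higher on all 4 tumor arrays.

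*Gzmb* encodes the granzyme that acts on caspases in the target cell. Its log2 level was 10.79 and 10.57 on the arrays of LN without IR, 10.48 and 9.07 in LN with IR, 12.27 and 12.78 in tumor without IR and 12.14 and 12.34 in tumor with IR. All 4 tumor arrays were above all 4 LN arrays, and every LN level was well above the lower quartile of its array. The group means without IR were 10.68 ± 0.16 in LN and 12.52 ± 0.36 in tumor T cells (SD, n = 2 arrays). The difference of 1.84 (SE 0.43), or 3.59-fold, passed (limma adjusted p = 0.0563). With IR the difference was 2.46 (SE 0.43), or 5.52-fold, and passed as well (limma adjusted p = 0.0177). The call without IR was lost with any 1 of the LN no IR or tumor arrays left out (1.58 to 2.10, limma adjusted p up to 0.345), and that with IR with either tumor IR array left out (2.56 and 2.36, adjusted p = 0.101 and 0.137).

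*Gzmc*, a granzyme of activated T cells, read 6.57 and 6.08 in LN without IR, 7.50 and 5.05 in LN with IR, 10.05 and 10.83 in tumor without IR and 10.18 and 10.84 in tumor with IR. Its tumor arrays again lay above all LN arrays, and the LN IR pair was the most spread (SD 1.73), with replicate 2 under the lower quartile. The tumor to LN difference was 4.12 (SE 0.73, limma adjusted p = 0.0208) without IR and 4.24 (SE 0.73, adjusted p = 0.0173) with IR. The call without IR was lost without LN no IR replicate 2 or tumor no IR replicate 2 (3.87 and 3.73, limma adjusted p = 0.126 and 0.175), and that with IR without tumor IR replicate 2 (3.91, adjusted p = 0.139). *Gzmf*, also of the duplicated set, read 6.25 and 5.84 in LN without IR, 6.73 and 5.90 in LN with IR, 11.67 and 12.21 in tumor without IR and 11.67 and 12.39 in tumor with IR. Its groups were separated by over 4 log2 units, and the LN levels sat just above the lower quartile. The difference was 5.89 (SE 0.36, limma adjusted p = 0.000397) without IR and 5.71 (SE 0.36, adjusted p = 0.00036) with IR.

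*Gzmd* and *Gzme* were the members with the lowest adjusted p in both tumor to LN comparisons. The main *Gzmd* probe set read 2.37 and 2.35 in LN without IR, 2.28 and 2.41 in LN with IR, 8.79 and 9.76 in tumor without IR and 8.99 and 9.96 in tumor with IR. The main *Gzme* probe set read 3.59 and 3.52, then 3.84 and 3.63, in the same LN groups, and 9.53 and 10.44, then 9.63 and 10.28, in the tumor groups. For both genes every LN array was under the lower quartile and every tumor array far above it, so the sizes of the differences have no exact meaning. As fitted, they were 6.92 for *Gzmd* and 6.43 for *Gzme* without IR (limma adjusted p = 0.000334 and 0.000288) and 7.13 and 6.22 with IR (adjusted p = 0.000245 and 0.000234).

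The reads of these near-identical genes may be shared between probe sets. The main probe sets of *Gzmd* and *Gzme* are of the kind that the array design marks with an x, as open to binding other transcripts. A further *Gzmd* probe set without that mark read 2.38 and 2.14 in LN without IR and 8.61 and 9.69 in tumor without IR, a difference of 6.89. The probe set that names both genes read 3.57 and 3.42 against 9.80 and 10.59, a difference of 6.70. All 4 probe sets therefore separated the tissues in the same direction, and how much of each signal belongs to *Gzmd*, *Gzme* or another member of the cluster was not tested.

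*Gzmg* had the smallest tumor to LN difference of the 5 genes with the shared promoter run. It read 5.65 and 5.69 in LN without IR, 5.00 and 5.04 in LN with IR, 6.56 and 8.49 in tumor without IR and 7.38 and 7.78 in tumor with IR. The tumor pair without IR differed by 1.94, the largest replicate gap of this gene, and both LN IR arrays were under the lower quartile. The difference of 1.86 without IR (SE 0.54) was not called (limma adjusted p = 0.118), while that of 2.56 with IR (SE 0.54) was (adjusted p = 0.0339). The change between these differences was itself not called (0.70, adjusted p = 0.849). Without IR the difference was 2.82 without tumor no IR replicate 1 (limma adjusted p = 0.00803) and 0.89 without tumor no IR replicate 2 (adjusted p = 0.179), and it was called in 7 of 22 alternatives. The call with IR was lost in 3 of 22, with 2.76 without tumor IR replicate 1 and 2.36 without tumor IR replicate 2 (limma adjusted p = 0.137 and 0.22).

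**Figure D2:**
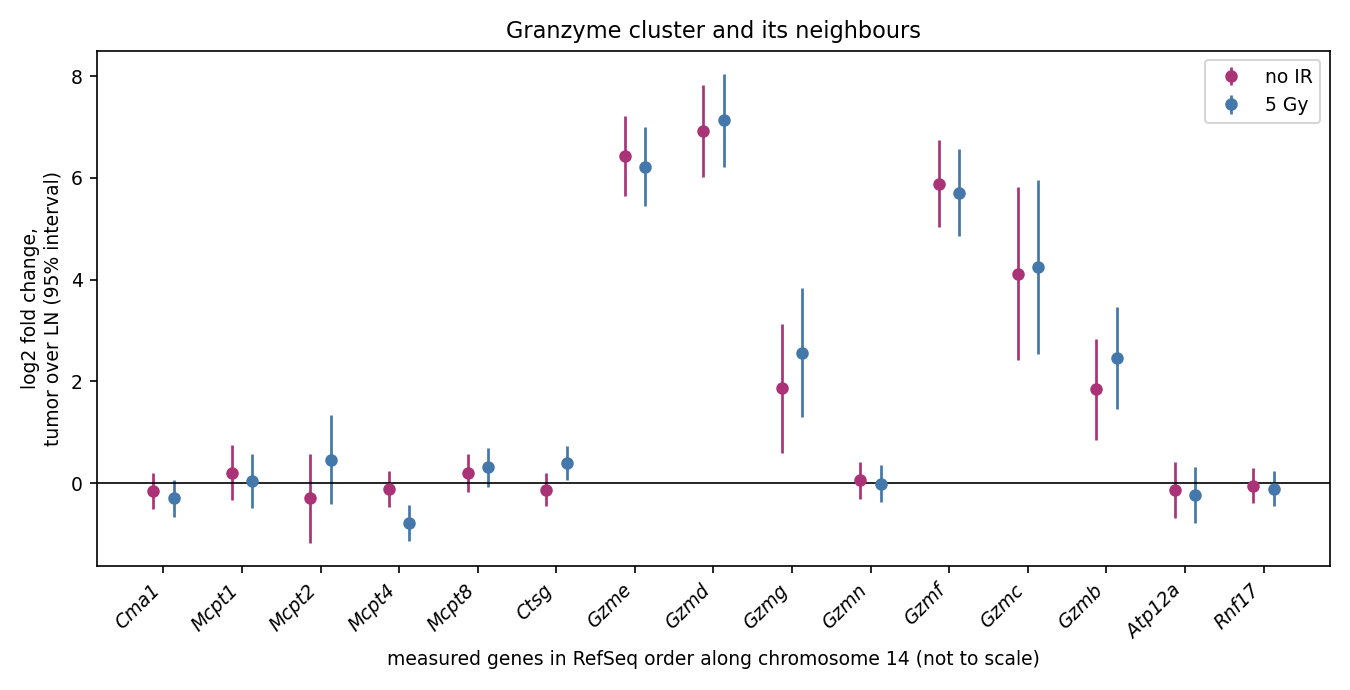
Log2 fold change of tumor over LN T cells without IR and with 5 Gy for each measured gene along the granzyme cluster, in RefSeq order on chromosome 14 and not to scale; points are limma estimates and bars 95% intervals. The 6 granzymes from *Gzme* to *Gzmb* lie between 1.84 and 7.13, *Gzmn* among them at 0.05 and −0.01, and the flanking genes between −0.79 and 0.46.

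*Gzmn*, which lies between *Gzmg* and *Gzmf* and encodes a further granzyme, read 3.27 to 3.59 on all 8 arrays, under the lower quartile in both tissues. Its tumor to LN difference was 0.05 without IR and −0.01 with IR, with 95% intervals of −0.32 to 0.41 and −0.38 to 0.35. On the *Gzme* side the protease genes of mast cells and other myeloid cells, *Ctsg*, *Mcpt8*, *Mcpt4*, *Mcpt2*, *Mcpt1* and *Cma1*, differed by −0.30 to 0.20 without IR and by −0.79 to 0.46 with IR. On the *Gzmb* side *Atp12a*, a proton pump subunit, and *Rnf17*, a germ cell gene, differed by −0.14 and −0.05 without IR. Of these flanking genes *Mcpt1*, *Ctsg*, *Atp12a* and *Rnf17* were under the lower quartile on all 8 arrays, and *Mcpt2* and *Mcpt4* on 7, so a difference near 0 says little of them. *Cma1* and *Mcpt8* were above it on every array. None was called in either comparison, *Mcpt4* with IR lying under the fold limit (−0.79, limma adjusted p = 0.0227).

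The granzymes of the other chromosomes did not follow this pattern. *Gzma*, the tryptase, read 11.19 and 11.69 in LN without IR, 10.10 and 8.12 in LN with IR, 9.63 and 10.60 in tumor without IR and 8.52 and 10.80 in tumor with IR. It was high everywhere, and without IR both tumor arrays were below both LN arrays. The difference of −1.33 (SE 0.86, limma adjusted p = 0.5) was not called, nor that of 0.54 with IR (adjusted p = 0.764). The 2 arrays of tumor with IR differed by 2.28 in *Gzma*, and without either of them the difference with IR was 1.68 or −0.60.

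*Gzmk*, the second tryptase, read 10.12 and 9.18 in LN without IR, 9.58 and 8.47 in LN with IR, 10.18 and 9.76 in tumor without IR and 9.53 and 10.04 in tumor with IR. The tissues overlapped. The difference was 0.32 without IR (95% interval −0.72 to 1.36, limma adjusted p = 0.759) and 0.76 with IR (−0.28 to 1.80, adjusted p = 0.358), so a difference of the size seen for *Gzmc* lies outside both intervals.

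*Gzmm*, a granzyme of NK cells and some T cells, read 8.10 and 9.99 in LN without IR, 8.07 and 8.99 in LN with IR, 7.27 and 7.15 in tumor without IR and 7.19 and 7.23 in tumor with IR. All tumor arrays were below all LN arrays, and the tumor arrays were close together while LN pairs were up to 1.88 apart. The difference was −1.84 without IR (SE 0.57, limma adjusted p = 0.144) and −1.32 with IR (SE 0.57, adjusted p = 0.219), neither of them called. Without LN no IR replicate 1 it was −2.78 (limma adjusted p = 0.0178), and without LN no IR replicate 2 it was −0.89 (adjusted p = 0.398). It was called lower in 8 of 23 alternatives without IR and in 4 of 23 with IR.

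*Prf1* was read by 2 probe sets that did not give the same picture. The main one read 9.0 and 10.80 in LN without IR, 9.26 and 10.02 in LN with IR, 11.51 and 11.64 in tumor without IR and 11.50 and 11.35 in tumor with IR. The other read 10.65 and 9.56, then 10.36 and 9.29, in the LN groups, and 10.54 and 10.29, then 10.78 and 10.70, in the tumor groups. On the main probe set all tumor arrays were above all LN arrays, whereas on the other the tumor arrays without IR fell inside the LN range.

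The main *Prf1* probe set gave a difference of 1.67 without IR (SE 0.54, limma adjusted p = 0.155), which was not called, and of 1.79 with IR (SE 0.54, adjusted p = 0.0922), which was. The other gave 0.31 without IR (adjusted p = 0.761) and 0.91 with IR (adjusted p = 0.256), neither called. In LN the probe sets moved in opposite directions between the replicates: replicate 2 minus replicate 1 was 1.80 without IR and 0.76 with IR on the main probe set, and −1.09 and −1.07 on the other. The main probe set without LN no IR replicate 1 gave a difference of 0.77 (limma adjusted p = 0.301), and without LN no IR replicate 2 one of 2.57 (adjusted p = 0.0179). That difference was called in 7 of 23 alternatives, and the call with IR was lost in 8 of 23. Which probe set follows the *Prf1* transcript was not tested.

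**Figure D3:**
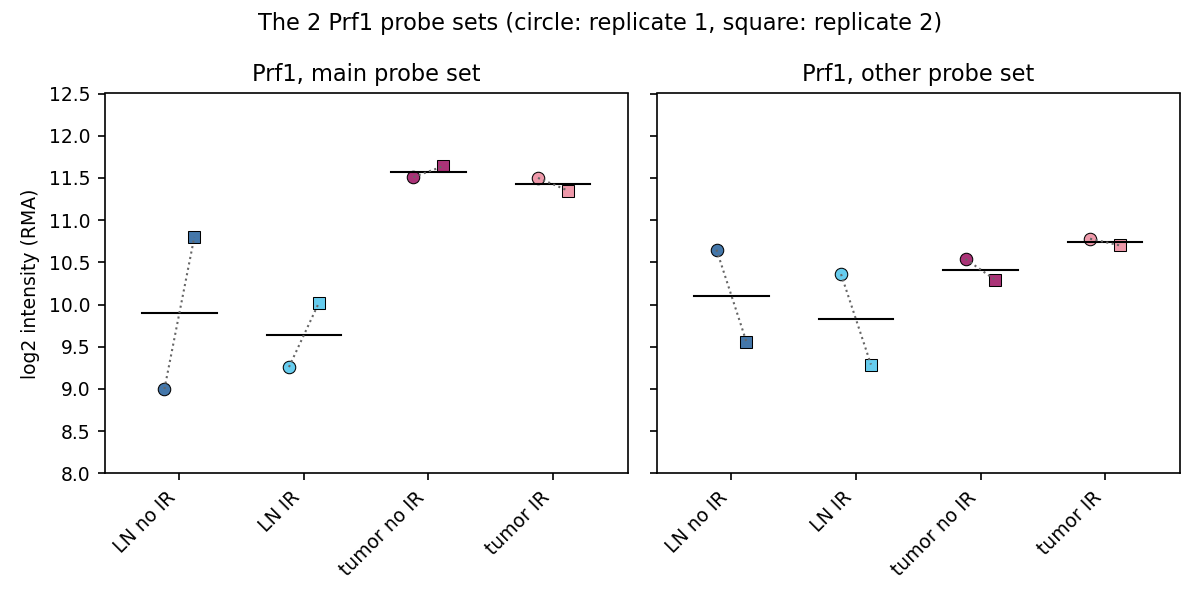
Log2 intensity (RMA) of the 2 *Prf1* probe sets on the 8 arrays, by group, with replicate 1 as circles, replicate 2 as squares, the mean as a line and a dotted line joining the arrays of a group. In both LN groups replicate 2 lies above replicate 1 on the main probe set, by 1.80 and 0.76, and below it on the other.

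With IR, 7 of the 10 genes were higher in tumor T cells, *Gzmg* and *Prf1* in addition to the 5 without IR, and none was lower. Over all genes 4.80% were called higher and 2.00% lower, and the called genes of chromosome 14 are again not independent of each other. The median difference of the 10 genes was 2.51, against 0.06 for all genes, and 7 had an unadjusted p under 0.05. The plot of both tumor to LN comparisons shows the 2 sets of intervals overlapping for every gene. For *Prf1* too, the change between the comparisons was small and not called (0.11, limma adjusted p = 0.978).

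**Figure D4:**
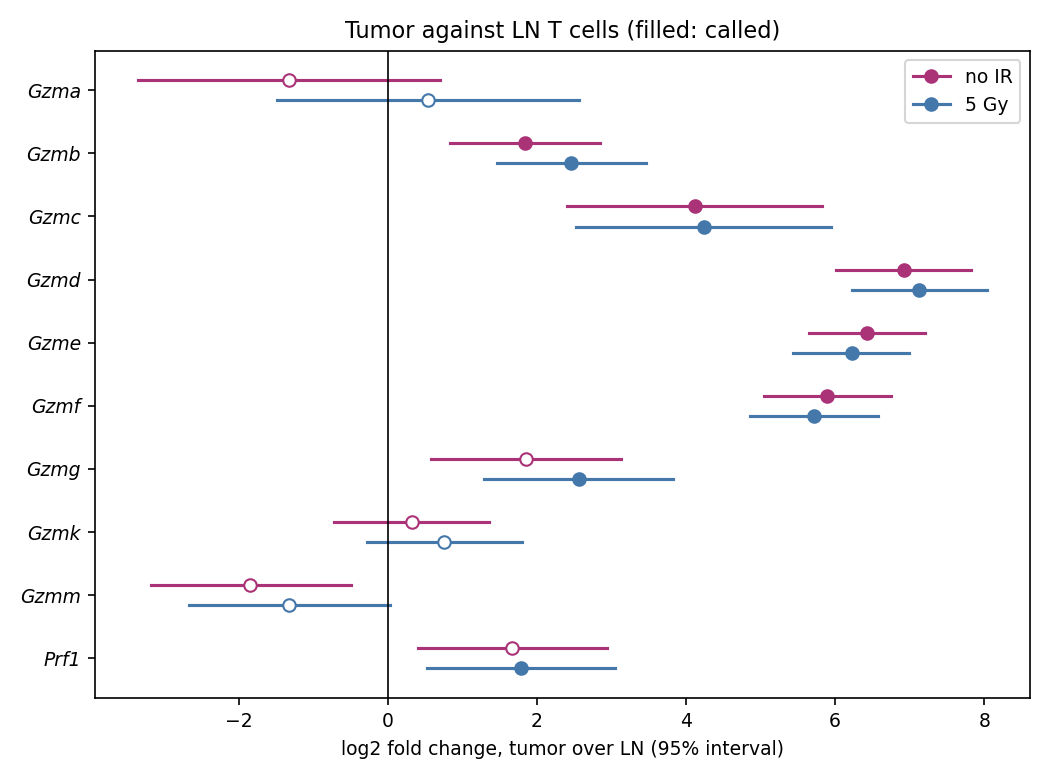
Log2 fold change of tumor over LN T cells for the 10 genes (main probe sets), without IR and with 5 Gy; points are limma estimates, filled where called, and bars 95% intervals. *Gzmd*, *Gzme* and *Gzmf* lie at 5.71 or higher in both comparisons, while *Gzmk* lies at 0.32 and 0.76 and *Gzmm* at −1.84 and −1.32.

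IR itself changed none of the 10 genes by the call rule at 5 h, in LN or in tumor T cells. Over all genes 1.05% were called changed in LN and 0.0989% in tumor T cells. The unadjusted p was under 0.05 for 1 gene in LN and 0 in tumor, and the robust fit also called 0 in each. These comparisons use the same arrays as the tumor to LN comparisons. Among the 10 genes the median difference was −0.39 for LN and −0.01 for tumor T cells, against 0.01 and 0.09 for all genes.

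In LN the gene with the lowest p was *Gzma*, whose levels of 10.10 and 8.12 with IR were below those of 11.19 and 11.69 without. The difference was −2.33 (SE 0.86, 95% interval −4.35 to −0.30, limma adjusted p = 0.289), and 0.0298 was the unadjusted limma value. *Gzmb* was also lower on both LN IR arrays than on both LN arrays without IR, by −0.91 on average (SE 0.43, adjusted p = 0.379). In both genes LN IR replicate 2 was the lower array, by 1.98 in *Gzma* and 1.41 in *Gzmb*. Without LN IR replicate 1, which leaves that array alone in its group, 4 genes were called lower: *Gzma* (−3.31), *Gzmb* (−1.61), *Gzmc* (−1.28) and *Gzmk* (−1.18). Without LN IR replicate 2 none was called, and *Gzma* stood at −1.34 and *Gzmb* at −0.20.

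In tumor T cells the differences with IR ran from −0.46 for *Gzma* to 0.20 for *Gzmd*. *Gzmb* differed by −0.29 (95% interval −1.29 to 0.72) and *Prf1* by −0.15 (−1.41 to 1.11). *Gzmd*, *Gzme* and *Gzmf* had the narrowest intervals, the widest of these running from −0.76 to 0.95 in *Gzmf* and from −0.71 to 1.11 in *Gzmd*. With 2 arrays a group, an interval gives the values that the data allow. It does not give the smallest change that the call rule would find. In tumor T cells *Cdkn1a* rose by 1.95 with IR and was not called (limma adjusted p = 0.138). The IR effect was not called different between the tissues for any of the 10 genes, and for 0% of all genes. No member had an unadjusted p under 0.05 in that comparison, the robust fit called 0, and *Gzma* had the largest value (1.87, SE 1.22, limma adjusted p = 0.79).

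**Figure D5:**
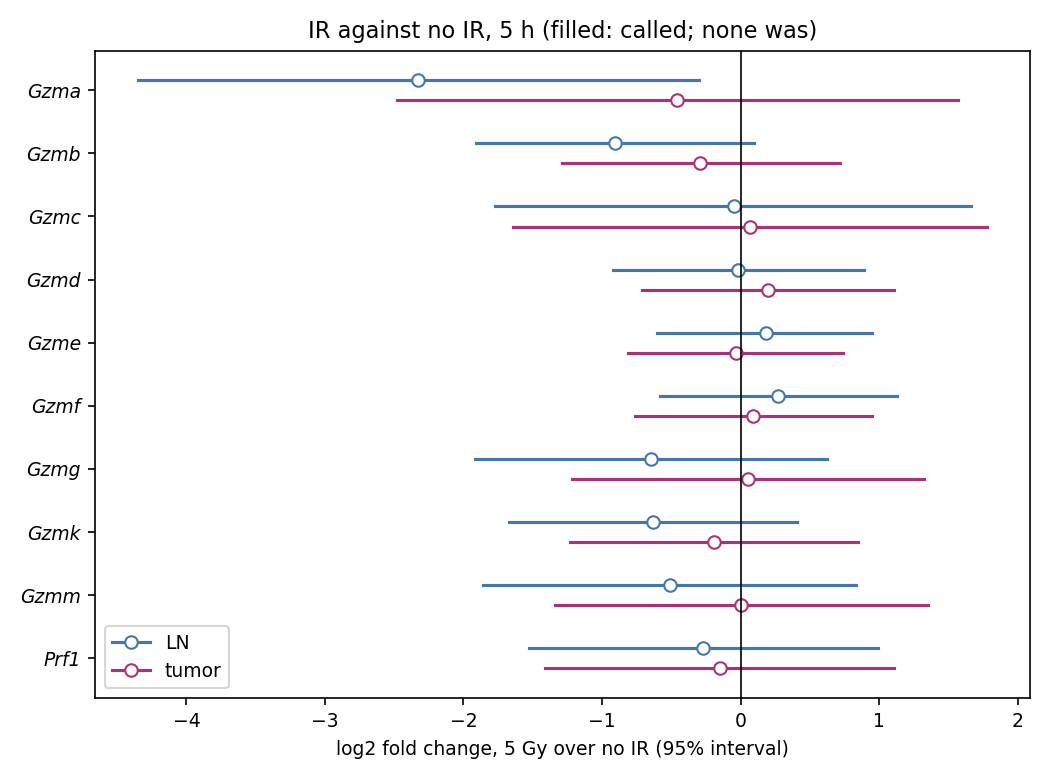
Log2 difference between 5 Gy and no IR, 5 h after IR, for the 10 genes in LN and in tumor T cells; points are limma estimates, open because none was called, and bars 95% intervals. Only *Gzma* in LN, at −2.33, has an interval that leaves out 0.

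On the tumor arrays several members moved together from array to array. Replicate 2 was above replicate 1 in both tumor groups for *Gzma*, *Gzmb*, *Gzmc*, *Gzmd*, *Gzme*, *Gzmf* and *Gzmg*, by 0.20 for *Gzmb* with IR to 2.28 for *Gzma* with IR. The mean level of 13 macrophage and monocyte markers did the same, at 10.42 and 11.17 without IR and 8.98 and 10.42 with IR. On the LN arrays it was 6.23 to 6.62. Between tumor with and without IR the 2 sets did not move alike. The median difference was −1.18 for the 13 markers and −0.01 for the 10 genes. Of the 13 markers 7 had an unadjusted limma p under 0.05 there, and 0 were called. Of these markers 12 were called higher in tumor than in LN in each comparison, *C1qa* reading 12.13 and 12.56 in tumor without IR. Of 8 fibroblast markers 5 were called higher in each comparison, with means of 9.54 to 9.85 on tumor and 6.81 to 7.44 on LN arrays. The part of these transcripts in the granzyme results was not tested.

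NK cells, which also carry granzymes and perforin, and mast cells, which carry related proteases, were looked at by their markers. The mean of 6 measured NK markers was 5.57 and 7.12 in LN without IR, 6.21 and 6.76 in LN with IR, 7.60 and 8.54 in tumor without IR and 7.82 and 8.44 in tumor with IR. Called higher in tumor without IR were *Klrb1b*, *Fcgr3* and *Fcer1g*, the latter pair being Fc receptor genes that macrophages also express. *Ncr1*, which encodes the NK receptor NKp46, read 4.73 to 6.10 over the 8 arrays. It was under the lower quartile on 5 of them, including all 4 LN arrays. With IR it was called higher in tumor (1.17, limma adjusted p = 0.0857), as were *Klrb1b*, *Fcgr3* and *Fcer1g*. In LN without IR the NK receptor gene *Klra7* read 4.78 on replicate 1 and 9.38 on replicate 2, the widest gap among the NK markers. *Klrb1b* read 6.61 and 6.59 there, and the other NK markers were higher on replicate 2 by less. The B cell marker *Ms4a1* read 5.28 and 8.56. *Gzmm* and the main *Prf1* probe set were also higher on replicate 2, while the other *Prf1* probe set was lower (10.65 and 9.56). Of 10 mast cell markers none was called in either comparison (2 at an unadjusted p under 0.05 in each), and their means were 5.29 to 5.80. The part of NK transcripts in the results was not tested.

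Across the 8 arrays, *Gzmd*, *Gzme* and *Gzmf* correlated with each other at 0.995 to 0.999, and *Gzmb* with these 3 at 0.906 to 0.918, values that mostly restate the gap between tissues. *Gzma* correlated with the same 4 genes at −0.133 to 0.212. Among 2962 genes with an SD of at least 0.5 over the arrays, those most like the mean of *Gzmd*, *Gzme*, *Gzmf* and *Gzmg* were *Ecm1*, an extracellular matrix protein, *Asph*, an aspartyl hydroxylase, and *Bnip3*, a mitophagy receptor, each at 0.996. Those most like *Gzmb* were *Ifitm2* (0.998), *Mospd2* (0.995) and *Crlf2* (0.991), a chain of the TSLP receptor. Those most like *Prf1* were *Stc2* (0.981), *Ctsl* (0.977) and *Plek* (0.975). *Gzmk* was followed most closely by *Triobp* (0.978), and *Gzmm* by *Elovl7* (0.985). All are Pearson correlations over 8 arrays that share 4 groups, and are given as description.

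Genes that store and mature granzymes were partly higher in tumor T cells. Without IR 4 of 13 measured were higher and none lower, where 4.50% of all genes were called higher and 1.04% lower. *Ctsc*, the protease that removes the propeptide of granzymes, read 10.47 and 10.92 in LN and 11.89 and 12.34 in tumor, a difference of 1.42 (limma adjusted p = 0.0217). *Ctsl*, a lysosomal protease, differed by 2.54, *Lamp2*, a lysosomal membrane protein, by 1.14 and *Igf2r*, a sorting receptor for lysosomal enzymes, by 1.04. *Ctsh*, which can also process granzyme B, differed by 1.68 and was not called (limma adjusted p = 0.209). *Srgn*, the proteoglycan that holds granzymes in the granule, was at 12.84 on both LN arrays and at 12.97 and 13.02 in tumor (0.15, limma adjusted p = 0.656). With IR 3 of 13 were higher, *Ctsc*, *Ctsl* and *Lamp2*, against 4.80% of all genes. Without tumor no IR replicate 2 none of the 13 was called in the comparison without IR. *Ctsc*, *Ctsl*, *Lamp2* and *Igf2r* are lysosomal genes that macrophages also express.

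Of 15 genes of granule exocytosis none was called without IR, with 5 at an unadjusted p under 0.05 and 2 called by the robust fit. As only 4.50% of all genes were called higher and 1.04% lower, none called in so short a list says little. The largest values were those of *Sytl2*, which links Rab27a to the membrane (1.55, limma adjusted p = 0.128), and the syntaxin *Stx7* (1.27, adjusted p = 0.135). With IR these were called, at 2.14 and 1.76, where 4.80% of all genes were called higher. *Rab27a*, *Unc13d* and *Stx11*, which dock, prime and fuse the granule, differed by 0.37, 0.03 and 0.35 without IR, and none was called.

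Inhibitors were measured for 7 genes, of which 2 were higher in tumor T cells without IR and none lower. The shares of all genes were 4.50% and 1.04%. *Serpinb9b* is a mouse serpin related to *Serpinb9*, which encodes the intracellular inhibitor of granzyme B. *Serpinb9b* read 6.01 and 5.96 in LN and 9.83 and 9.50 in tumor, and *Serpinb9* read 9.76 and 10.02 in LN and 11.18 and 11.21 in tumor. The differences were 3.68 (limma adjusted p = 0.000275) and 1.31 (adjusted p = 0.0305), with no overlap of the groups. With IR 3 were higher, against 4.80% of all genes: *Serpinb9b* (3.92), *Serpinb6a* (1.98) and *Cstb*, a cathepsin inhibitor (1.25). *Serpinb9* then differed by 0.82 and was not called.

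The proteins that granzymes cleave in a target cell were listed as a set of 10 measured genes. None was called without IR (1 at an unadjusted p under 0.05, 0 by the robust fit). As only 4.50% of all genes were called higher and 1.04% lower, none called in so short a list says little. *Bid*, cut by granzyme B, differed by 0.03 in each comparison. *Gsdme*, a pore-forming gasdermin, was the only member called between tumor and LN with IR (1.69, limma adjusted p = 0.0818). Of all genes 4.80% were called higher there. With any array other than LN IR replicate 1 left out, 0 of the 10 were called with IR.

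Among 15 measured regulators of the cytotoxic genes, 3 were higher and 1 lower in tumor T cells without IR. The shares of all genes were 4.50% and 1.04%. Those higher were *Zeb2*, *Nfil3* and *Il12rb2*. *Zeb2*, a zinc finger factor of effector T cells, differed by 3.07 (limma adjusted p = 0.00582). In tumor it read 9.20 and 9.63 without IR and 8.43 and 9.30 with IR, replicate 2 being higher as for the macrophage markers. The part of macrophage transcripts in the *Zeb2* difference was not tested. *Nfil3*, a basic leucine zipper factor, differed by 2.41 (adjusted p = 0.0275), and *Il12rb2*, a chain of the IL-12 receptor, by 1.72 (adjusted p = 0.00284). *Eomes*, the T-box factor of memory CD8+ T cells, was lower, reading 9.93 and 10.60 in LN and 8.21 and 8.53 in tumor (−1.89, limma adjusted p = 0.00759). *Tbx21*, which encodes T-bet, read 9.90 and 9.70 in LN and 10.44 and 10.47 in tumor without IR (0.66, adjusted p = 0.17). *Runx3*, whose product binds the TGTGGT word, differed by 0.38 and was not called. With IR 3 were higher (*Tbx21*, *Zeb2* and *Il12rb2*) and 3 lower (*Eomes*, *Bach2* and *Stat4*), against 4.80% and 2.00% of all genes.

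IR changed 1 of the 15 regulators in LN by the call rule, with 5 at an unadjusted limma p under 0.05. Apart from *Tbx21* the 5 were *Nfil3* (2.08), *Il12rb2* (0.81), *Eomes* (−1.02) and *Bach2* (0.48), none of them called (limma adjusted p = 0.125 to 0.255). In tumor T cells IR changed 0 (0 at an unadjusted p under 0.05 and 0 by the robust fit). Over all genes 1.05% were called changed in LN and 0.0989% in tumor T cells. In LN *Tbx21* fell with IR, from 9.90 and 9.70 to 8.96 and 8.40 (−1.12, SE 0.22, limma adjusted p = 0.0971). In tumor T cells its levels of 10.20 and 10.50 with IR overlapped those without. The call in LN was close to the threshold and was lost when any array outside the LN IR pair was left out.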

How the data were processed

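Gene expression of sorted T cells was measured on 8 Affymetrix whole-genome mouse arrays. The authors normalised the arrays with RMA, of a version not given in the sources used here. They deposited 1 table of log2 values for 45101 probe sets, which was used as deposited. Probe sets were named from the array annotation: 34945 carried 1 symbol, 932 several, 9160 none, and 64 were controls. With limma 3.58.1 in R 4.3.3, the 4 groups were fitted by least squares over the 35877 annotated probe sets, with 4 residual and 3.13 prior degrees of freedom and Benjamini-Hochberg adjustment over these probe sets. The thresholds are those of the study's methods, which used a robust fit and overlap with SAM. The robust fit was an alternative here, and SAM was not run. The fit was tested on simulated data. The sources state 2 independent experiments but not that replicate numbers mark them. Deviations of same-numbered arrays correlated at 0.43 within LN and 0.431 within tumor but at −0.137 to 0.069 between tissues, so the numbers were not used for pairing. All 10 genes are named, as are called genes of 5 context lists and up to 4 others with the largest values. The members and lists were chosen with earlier results of these data known, and marker lists were written for this work. Alternatives covered the fit, scaling, probe set choice, thresholds and leaving out each array. Promoter sequences are from RefSeq (GRCm38.p6), matched by symbol for all 10 genes (*Gzmm* has 2 windows), and were aligned in pairs with Biopython 1.88. Proteins were not used here.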

Additional observations from a re-analysis of the deposited data

How the results depend on the processing

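Over the 10 genes and 5 comparisons, 1125 alternative values were computed. Of these 1070 kept their side of the threshold, 32 moved past it, 23 fell back from it, and 0 called values changed sign. Among the uncalled, 60 values took the opposite sign. *Gzmd*, *Gzme* and *Gzmf* stayed called in both tumor to LN comparisons under every alternative run in which they were measured. Lost without IR were *Gzmb* in 7 of 23 alternatives and *Gzmc* in 2, and lost with IR were *Prf1* in 8 of 23, *Gzmg* in 3 of 22, *Gzmb* in 2 of 23 and *Gzmc* in 1.

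The count of genes higher in tumor without IR, 5 as reported, was 3 with the dimmer 50% of probe sets left out, which keeps 7 of the 10 genes, and 3 to 5 with 1 array left out, the lowest without tumor no IR replicate 2. With IR the count of 7 was 4 with the dimmer 50% left out and 3 to 7 with 1 array left out, at 4 without tumor IR replicate 1 and 3 without tumor IR replicate 2. The count changed by IR in LN, 0 as reported, was 0 to 4 with 1 array left out, and that of genes whose IR effect differed between tissues 0 to 1 (*Gzmb*, 1.33), both highest without LN IR replicate 1. A group left with 1 array is assumed to vary like the others. Why these counts moved was not tested, beyond fewer arrays or probe sets entering the fit.

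With the replicate number as a block, the counts were 7 and 7 in the tumor to LN comparisons without and with IR, and 0 in the others. Without IR *Gzmg* (adjusted p = 0.08) and *Prf1* (adjusted p = 0.0974) became higher and *Gzmm* (−1.84, adjusted p = 0.088) lower by limma, and no other member's call changed. Blocks set within each tissue and a block with the tumor numbers exchanged, both chosen after seeing the data, also gave 7, 7 and 0. Scaling to T cell identity genes moved the median of all genes from −0.09 to 0.16 without IR, 0.06 to 0.22 with IR, 0.01 to 0.34 for IR in LN and 0.09 to 0.35 for IR in tumor. It gave counts of 7, 7 and 0. The number of arrays, 2 a group, limits the precision of every value.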
